A study of Mus musculus with 6 samples.

Results

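De novo lipogenesis, the making of fatty acids from acetyl-CoA, was followed through 10 genes in the livers of HFD-fed mice. They were taken by symbol from the gene table: Acly, Acaca, Acacb, Fasn, Scd1, Me1, Thrsp, Srebf1, Mlxipl and Acss2. All 10 were found among the 18453 genes with any count, and all 10 were among the 13431 with enough counts to be tested.

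In hepatocytes, citrate from mitochondria is cleaved in the cytosol to acetyl-CoA, which acetyl-CoA carboxylase turns into malonyl-CoA and fatty acid synthase builds into palmitate with NADPH. A desaturase and elongases then shape the fatty acids for triacylglycerol. Insulin, through LXR and SREBP-1c, and sugar, through ChREBP, switch these enzymes on together, and the pathway is active in the fed and the steatotic liver.

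Liver RNA came from 6 male mice, all of them Mettl14f/f, so that floxed Mettl14 alleles and the HFD were shared by every animal. The mice were 8 weeks old when HFD started, received the vector by tail vein 10 weeks into HFD, and gave their livers 8 weeks after that. In each group there were 3 mice: AAV8-TBG-Cre (Cre in what follows, labelled as METTL14 KO) and AAV8-TBG-GFP (GFP, the control, labelled as WT). The TBG promoter drives Cre in hepatocytes only, so the other liver cells keep Mettl14. Library names took 2 forms. GFP replicates 1 and 2 and Cre replicate 1 had short names (25, 36 and 35), whereas GFP replicate 3 and Cre replicates 2 and 3 had long names (1211, 1212 and 1213). What the forms stand for is not given in the sources used here. Because the forms crossed the vectors unequally, 2 short and 1 long in GFP and 1 short and 2 long in Cre, both contrasts were examined.

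Promoter sequence is shown for 5 genes on which the results turn: Thrsp, Fasn and Acly, which differed between the forms of name, Me1, which differed between the vectors, and Mlxipl, the one with an E-box. Each run is the 250 bases just before an annotated transcription start, 5′ to 3′ on the strand of the gene, from RefSeq on GRCm38.p6. Thrsp lies at chr7:97417551-97417800, Fasn at chr11:120824548-120824797, Acly at chr11:100528001-100528250 and Me1 at chr9:86695915-86696164, all on the minus strand, and Mlxipl lies at chr5:135089640-135089889 on the plus strand. Both strands of the windows were searched for 5 short motifs, and capitals mark the matches. In these 5 runs they are the CCAAT box, which the factor NF-Y binds, the GC box GGGCGG, which the factor Sp1 binds, and the E-box CACGTG, which factors such as USF bind.
Thrsp: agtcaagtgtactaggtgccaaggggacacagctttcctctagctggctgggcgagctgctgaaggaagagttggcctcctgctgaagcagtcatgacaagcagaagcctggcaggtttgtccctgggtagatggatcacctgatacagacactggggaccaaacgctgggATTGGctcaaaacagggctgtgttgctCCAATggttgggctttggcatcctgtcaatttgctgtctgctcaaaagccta
Fasn: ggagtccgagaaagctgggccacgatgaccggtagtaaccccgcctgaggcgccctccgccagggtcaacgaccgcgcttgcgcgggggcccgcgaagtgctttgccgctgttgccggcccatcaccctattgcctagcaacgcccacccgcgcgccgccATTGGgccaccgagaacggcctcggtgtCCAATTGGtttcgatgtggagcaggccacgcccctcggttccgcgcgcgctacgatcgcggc
Acly: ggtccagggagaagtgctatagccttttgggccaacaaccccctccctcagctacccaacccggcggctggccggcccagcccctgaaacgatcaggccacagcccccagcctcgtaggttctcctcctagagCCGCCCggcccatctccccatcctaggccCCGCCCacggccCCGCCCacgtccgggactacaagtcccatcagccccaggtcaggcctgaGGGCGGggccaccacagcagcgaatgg
Me1: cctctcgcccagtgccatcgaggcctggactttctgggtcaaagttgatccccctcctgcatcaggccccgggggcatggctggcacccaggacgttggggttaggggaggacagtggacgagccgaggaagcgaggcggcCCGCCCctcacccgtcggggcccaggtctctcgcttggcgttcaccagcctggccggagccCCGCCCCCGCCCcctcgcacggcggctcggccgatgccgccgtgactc
Mlxipl: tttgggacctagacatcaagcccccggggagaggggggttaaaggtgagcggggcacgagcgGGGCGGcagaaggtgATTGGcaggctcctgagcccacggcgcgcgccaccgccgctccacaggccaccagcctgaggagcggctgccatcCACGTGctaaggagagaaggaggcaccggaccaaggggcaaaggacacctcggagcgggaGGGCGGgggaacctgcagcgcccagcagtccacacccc

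Thrsp carried CCAAT at 79 to 75 bases before its start on the strand opposite to the gene, where the printed run reads ATTGG, and at 52 to 48 bases on the strand of the gene. Fasn carried it 3 times, at 90 to 86, 62 to 58 and 59 to 55 bases, of which the last 2 share 2 bases and lie on opposite strands. The printed windows of Acly and Me1 held GC boxes, 4 and 3 of them, and no CCAAT, while the window before another start of Me1 held CCAAT at 208 to 204 bases. Mlxipl held its CACGTG at 98 to 93 bases. The promoter table had 13 windows for 9 of the genes, some with several starts, and no entry for Scd1. CCAAT was found in 8 of these 13 windows, against 33.9% of all 32851 windows in the table. GGGCGG was found in 6 of 13, against 32.7%. The E-box was found in 1 of 13, against 6.02%. The sterol regulatory element TCACNCCAC was found in 1 of 13, at another start of Mlxipl, against 1.05% of all windows. A TATA box, written as TATAAA, was found in the window of Acacb alone, against 12.4% of all windows. A match in a window is a description of the letters and was not tied to binding.

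Depth was close in the 6 libraries, with 20356440 to 21010508 expected counts each. The first principal component of all tested genes (54.1% of the variance) separated the vectors, and on the second (18.7%) each long-named library lay below each short-named one. Mettl14 itself was at 2.31, 2.31 and 2.01 FPKM (fragments scaled by transcript length and library total, a level per length) in GFP replicates 1 to 3 and at 1.92, 2.40 and 1.82 FPKM in Cre replicates 1 to 3. These FPKM ranges overlapped, while in CPM (counts scaled by the TMM-adjusted library total) the Cre values of 4.86 to 5.38 lay below the GFP values of 5.81 to 6.43. The fitted log2 fold change of Mettl14 was -0.29 (SE 0.15, edgeR quasi-likelihood test, adjusted p = 0.337), so the libraries are named by their labels throughout. The study reported less METTL14 protein in livers of Cre males on the same diet, taken earlier after the vector than these. In whole liver, counts of Mettl14 from hepatocytes and from other cells add up, and here as for every gene fewer cells of a type and less RNA per cell cannot be told apart.

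On the FPKM scale, Scd1 had the highest level of the 10 genes in the GFP livers, at 975 ± 322 FPKM (SD, n = 3), followed by Thrsp at 347.5 ± 232.5 FPKM. Mlxipl (82.1 ± 9.25), Me1 (61.9 ± 11.9), Srebf1 (55.0 ± 24.4), Acss2 (45.0 ± 14.1), Acly (43.9 ± 15.5) and Fasn (39.8 ± 20.9) came next. Acaca (12.3 ± 4.86) and Acacb (10.7 ± 5.95) were the lowest. The GFP ranges of neighbours in this order overlapped, except between Scd1 and Thrsp and between Fasn and Acaca. The spread over all 6 livers differed widely between genes: the highest Thrsp level was 21.3 times the lowest, while for Acacb the ratio was 6.67, for Scd1 5.34 and for Mlxipl 1.98.

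More of the 10 genes were called between the forms of library name than between the vectors. In a fit with the vector as a covariate, 7 of 10 genes were lower in long-named libraries at an adjusted p under 0.05 (Thrsp, Srebf1, Acacb, Fasn, Acaca, Acly and Acss2). Of all tested genes, 0.64% were called lower in that comparison (86 of 13431). The median log2 fold change was -0.98 for the 10 genes and 0.01 for all tested genes. In the comparison of Cre with GFP, 1 of 10 genes was lower at an adjusted p under 0.05, Me1, against 0.447% of all tested genes (60 of 13431). The median was then -0.58 for the 10 genes and -0.01 for all tested genes. These 2 counts of called genes were not tested against each other.

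**Figure D1:**
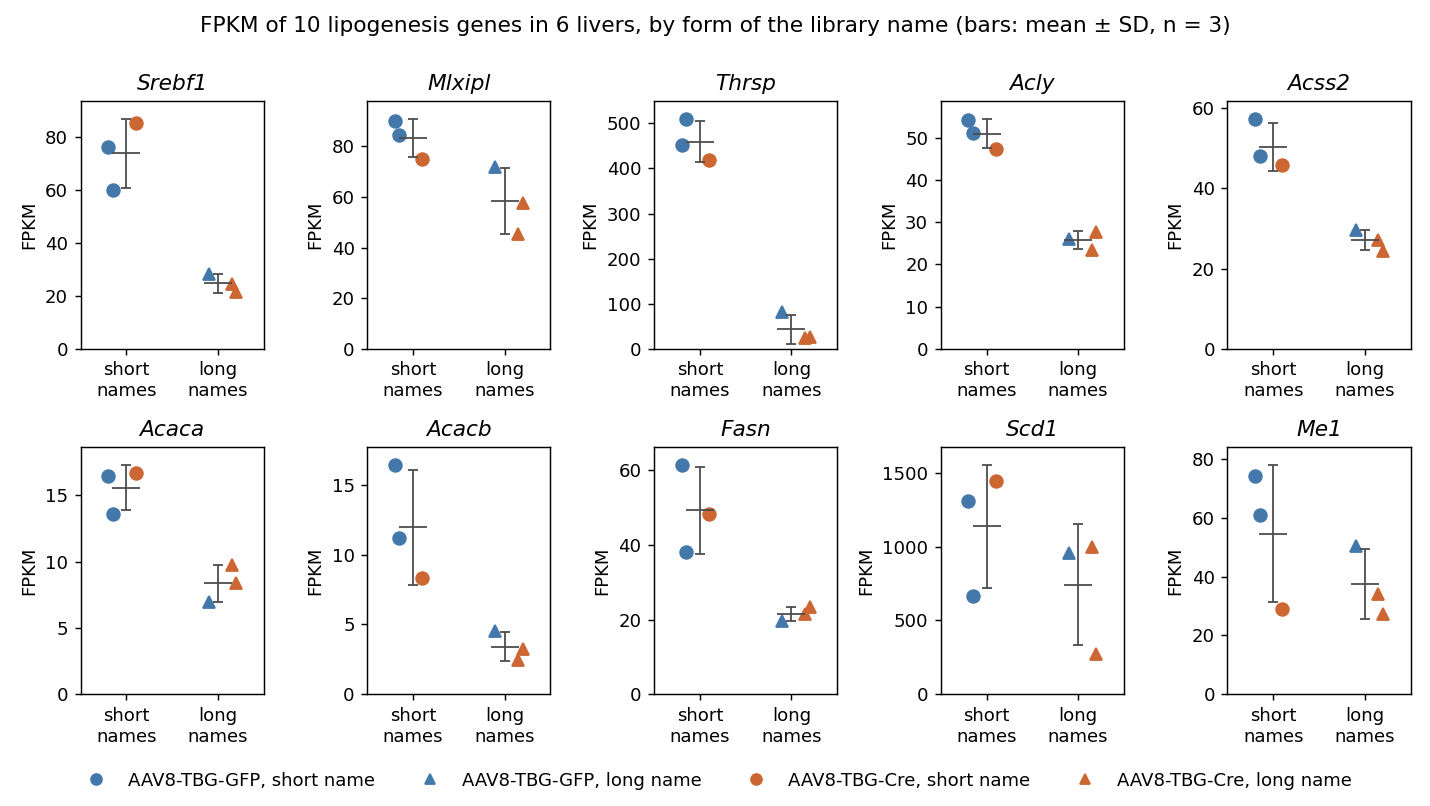
FPKM of each of the 10 genes (vertical axis, from 0, 1 panel per gene) in the 6 livers, placed by the form of the library name; circles are short and triangles long names, blue is AAV8-TBG-GFP and orange AAV8-TBG-Cre, and bars give the mean and SD of 3 livers. Thrsp sits at 418 to 509 FPKM in the short-named and 23.9 to 81.0 FPKM in the long-named libraries, whereas Me1 separates by colour, at 50.5 to 74.2 FPKM in GFP and 27.5 to 34.2 FPKM in Cre.

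The regulators came first in the order of the pathway. Thrsp (NCBI gene 21835, chr7:97412933-97417550) encodes Spot 14, a small protein induced by thyroid hormone, carbohydrate and insulin that raises lipogenic flux. It stood at 453 and 509 FPKM in GFP replicates 1 and 2 and 418 FPKM in Cre replicate 1, against 81.0 FPKM in GFP replicate 3 and 23.9 and 25.0 FPKM in Cre replicates 2 and 3. The 3 short-named livers lay far above the 3 long-named ones, and within the long-named ones the GFP liver was above both Cre livers. The fitted difference between the forms was 10.05-fold, a log2 fold change of -3.33 (SE 0.36, edgeR quasi-likelihood test, adjusted p = 0.0184). Between the vectors it was -1.26 (SE 1.16, adjusted p = 0.581), with GFP at 347.5 ± 232.5 and Cre at 155.6 ± 227.1 FPKM (SD, n = 3) and overlapping ranges.

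Srebf1 (NCBI gene 20787, chr11:60199084-60224186) encodes the SREBP-1 transcription factors, of which SREBP-1c carries the insulin signal to lipogenic promoters in liver. Its level was 76.5 and 59.9 FPKM in GFP replicates 1 and 2 and 85.3 FPKM in Cre replicate 1. In the long-named libraries it was 28.5 FPKM in GFP replicate 3 and 24.5 and 21.5 FPKM in Cre replicates 2 and 3. Long-named livers were lower without overlap, by 3.00-fold in the fit (log2 fold change -1.58, SE 0.19, adjusted p = 0.0203). The vectors overlapped (-0.46, SE 0.58, adjusted p = 0.701), since the highest and the lowest livers were both Cre.

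Mlxipl (NCBI gene 58805, chr5:135089890-135139768) encodes ChREBP, the sugar-sensing transcription factor of lipogenesis and glycolysis. It varied least, at 90.0, 84.4 and 71.9 FPKM in GFP replicates 1 to 3 and 75.1, 45.6 and 57.8 FPKM in Cre replicates 1 to 3. In FPKM the long-named livers lay below the short-named ones and the vectors overlapped. In CPM the reverse held: the Cre values of 142.5 to 271.2 CPM lay below the GFP values of 290.4 to 343.1 CPM, and the forms overlapped. Neither difference passed the adjusted threshold, with log2 fold changes of -0.61 between the vectors (SE 0.23, unadjusted p = 0.0286, edgeR quasi-likelihood test, adjusted p = 0.187) and -0.40 between the forms (SE 0.18, adjusted p = 0.330).

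Acetyl-CoA for the pathway comes from citrate through ATP-citrate lyase and from acetate through the cytosolic acetyl-CoA synthetase. Acly (NCBI gene 104112, chr11:100476352-100528000), which encodes the lyase, was at 54.2 and 51.3 FPKM in GFP replicates 1 and 2 and 47.4 FPKM in Cre replicate 1. It was at 26.1 FPKM in GFP replicate 3 and 23.4 and 27.6 FPKM in Cre replicates 2 and 3. The forms stood clear of each other at 51.0 ± 3.44 FPKM for short and 25.7 ± 2.12 FPKM for long names (SD, n = 3), while among the long-named livers GFP lay between the Cre values in FPKM and above both in CPM (127.6 against 88.9 and 124.8 CPM). Acss2 (NCBI gene 60525, chr2:155518043-155562743), which encodes the synthetase, was at 57.2, 48.1 and 45.7 FPKM in the short-named GFP replicates 1 and 2 and Cre replicate 1. In the long-named GFP replicate 3 and Cre replicates 2 and 3 it was at 29.6, 27.2 and 24.5 FPKM. Both genes were lower in long-named livers, Acly by 1.94-fold (log2 fold change -0.95, SE 0.15, adjusted p = 0.0381) and Acss2 by 1.78-fold (-0.83, SE 0.11, adjusted p = 0.0273). Between the vectors Acly differed by -0.56 (SE 0.35, adjusted p = 0.419) and Acss2 by -0.62 (SE 0.31, adjusted p = 0.3001) on the log2 scale, with overlap in both.

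The carboxylases make malonyl-CoA: ACC1 for synthesis in the cytosol, and ACC2 at the mitochondrion, where malonyl-CoA restrains fatty acid oxidation. Acaca (NCBI gene 107476, chr11:84129635-84401651), which encodes ACC1, was at 16.4, 13.6 and 16.7 FPKM in GFP replicates 1 and 2 and Cre replicate 1 and at 6.96, 9.77 and 8.38 FPKM in GFP replicate 3 and Cre replicates 2 and 3. Acacb (NCBI gene 100705, chr5:114146321-114250761), which encodes ACC2, was at 16.4, 11.2 and 8.29 FPKM in the short-named and 4.54, 2.46 and 3.22 FPKM in the long-named livers, in the same order. In both genes each long-named liver lay below each short-named one, and for Acacb the Cre livers were also the lower ones within each form. Acaca was 2.00-fold lower (log2 fold change -1.002, SE 0.11, adjusted p = 0.0184) and Acacb 2.97-fold lower (-1.57, SE 0.21, adjusted p = 0.0273) in long-named libraries. Between the vectors the log2 fold changes were -0.23 for Acaca (SE 0.35, adjusted p = 0.753) and -1.32 for Acacb (SE 0.57, unadjusted p = 0.0501, edgeR quasi-likelihood test, adjusted p = 0.239).

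Fatty acid synthase, encoded by Fasn (NCBI gene 14104, chr11:120805958-120825166), assembles palmitate. Its level was 61.5, 38.2 and 48.3 FPKM in GFP replicates 1 and 2 and Cre replicate 1, and 19.7, 21.6 and 23.4 FPKM in GFP replicate 3 and Cre replicates 2 and 3. The long-named livers lay close together (21.6 ± 1.87 FPKM, SD, n = 3), and the lowest liver of all was GFP replicate 3 in FPKM and Cre replicate 2 in CPM (217.5 and 185.3 CPM). Fasn was 2.33-fold lower in long-named libraries (log2 fold change -1.22, SE 0.21, adjusted p = 0.0456), and the vectors differed by -0.49 (SE 0.45, adjusted p = 0.586).

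Scd1 (NCBI gene 20249, chr19:44394450-44407709) encodes the stearoyl-CoA desaturase that makes oleate and palmitoleate. It separated neither contrast: GFP replicates 1 to 3 had 1305, 662 and 957 FPKM and Cre replicates 1 to 3 had 1442, 1000.0 and 270.0 FPKM. The highest and the lowest level were both in Cre livers. The log2 fold change was -0.65 between the forms (SE 0.50, adjusted p = 0.580) and -0.29 between the vectors (SE 0.54, adjusted p = 0.802).

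Me1 (NCBI gene 17436, chr9:86581363-86695914) encodes cytosolic malic enzyme, which supplies NADPH for fatty acid synthesis, and was the gene of the 10 called between the vectors. Its level was 74.2, 60.8 and 50.5 FPKM in GFP replicates 1 to 3 and 28.8, 34.2 and 27.5 FPKM in Cre replicates 1 to 3. Each Cre liver lay below each GFP liver, and the Cre livers were close together (30.2 ± 3.59 FPKM, SD, n = 3). In the libraries labelled Cre, Me1 was 2.31-fold lower in the fit (log2 fold change -1.21, SE 0.14, edgeR quasi-likelihood test, adjusted p = 0.0330), and the exact two-sided permutation test gave p = 0.1, the smallest that 3 against 3 allow. The forms of name differed by -0.17 (SE 0.14, adjusted p = 0.592). Me1 was also lower in Cre within each form, at 28.8 against 60.8 and 74.2 FPKM among short names and 34.2 and 27.5 against 50.5 FPKM among long names. The adjusted call of Me1 ended when GFP replicate 1, GFP replicate 2, Cre replicate 2 or Cre replicate 3 was left out (log2 fold changes of -1.23 to -1.08, adjusted p = 0.0766 to 0.118), and in limma on log2(FPKM + 1) (-1.001, adjusted p = 0.0701). Over all 16 alternatives its adjusted p ran from 2.5e-11 to 0.141.

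**Figure D2:**
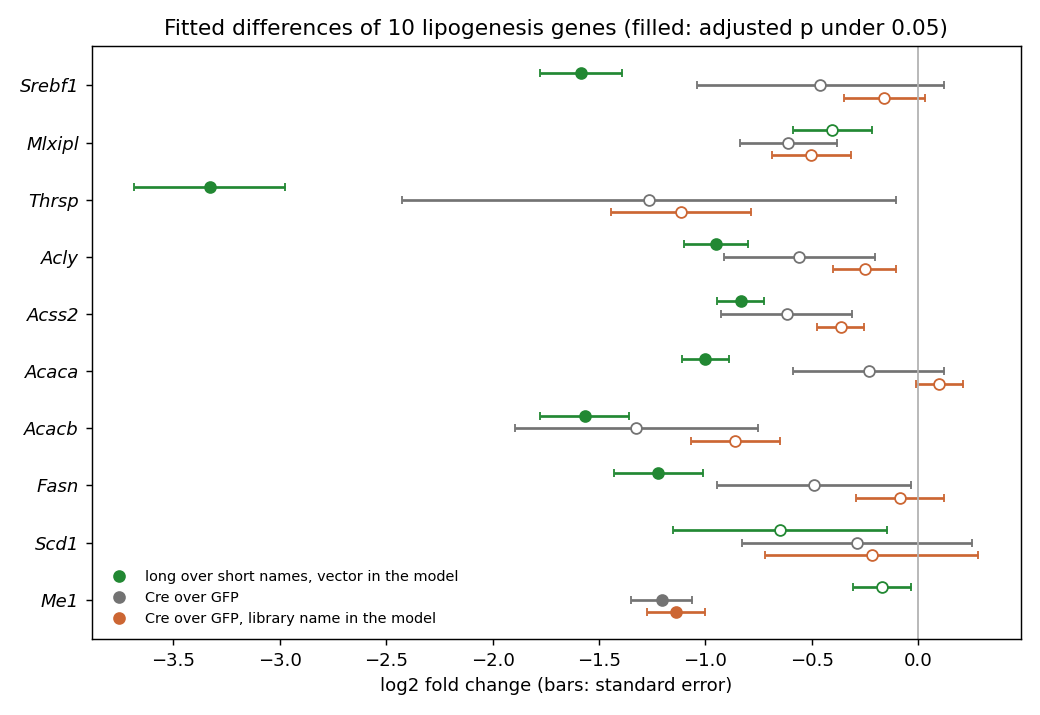
Fitted log2 fold changes of the 10 genes (horizontal axis; bars are standard errors) for long over short names with the vector in the model (green), Cre over GFP (grey) and Cre over GFP with the form of name in the model (orange); filled points have an adjusted p under 0.05. The green points of 7 genes are filled, from -3.33 for Thrsp to -0.83 for Acss2, and Me1 is the gene whose grey and orange points are filled, at -1.21 and -1.14.

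Without regard to the vector, every long-named library lay below every short-named one in CPM for 7 of the 10 genes, the same 7 that were called, against 11.2% of all tested genes (1504 of 13431). The exact two-sided permutation test of each gives p = 0.1, the smallest possible. At the study's threshold, an unadjusted p under 0.05 and a fold of at least 1.2, 7 of the 10 genes were lower in long-named libraries, against 7.79% of all tested genes. The adjusted calls rested on the full set of libraries. They were 4 without GFP replicate 1, 0 without GFP replicate 2, 2 without GFP replicate 3, 1 without Cre replicate 1 and 4 without Cre replicate 2 or without Cre replicate 3. The number of all genes called went from 187 to 70, 4, 28, 8, 65 and 70 in the same fits. In each, 7 or 8 of the 10 genes passed the study's threshold. Of all 13527 to 13763 tested genes, 963, 769, 913, 678, 1129 and 1008 were lower at that threshold, in the same order. With the form as the only factor 2 were called, Acaca and Srebf1. Over all 15 alternatives the log2 fold changes of the 7 genes lay between -4.16 and -0.78.

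For the vectors, every Cre library lay below every GFP library in CPM for 2 of the 10 genes, Me1 and Mlxipl, against 13.0% of all tested genes (1745 of 13431). The same 2 passed the study's threshold in the edgeR fit, against 8.41% of all tested genes (1129 lower beside 1618 higher). With upper quartile normalization that split of all genes was 737 lower and 1922 higher, and the count for the 10 genes was again 2. In DESeq2, which the study names, 3 of the 10 passed this threshold, beside 1205 lower and 1770 higher of 18419 genes. Acss2 was then among the 3 (log2 fold change -0.63, unadjusted p = 0.0432 in DESeq2). In the edgeR fit all 10 log2 fold changes were negative, with a median of -0.58 against -0.01 for all tested genes. The study reported lower mRNA (by qPCR) and protein of ACC1, FASN, ACLY and SCD1 in livers of Cre males on this diet, taken earlier after the vector. It also named Fasn and Acly among the genes lower in its RNA-seq. In the edgeR fit of the vectors, Acaca, Fasn, Acly and Scd1 passed neither threshold. Without Cre replicate 1, the short-named Cre library, 8 of the 10 passed the study's threshold, beside 1712 lower of all 13678 tested genes. At the adjusted threshold 2 passed, Me1 and Thrsp, beside 352 lower of all tested genes. The median of the 10 genes moved from -0.58 to -0.99. Thrsp then differed by -4.01 between the vectors (adjusted p = 0.0340), in a comparison of 2 long-named Cre livers with 2 short-named and 1 long-named GFP livers.

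With the form of name in the model, 1 of the 10 genes was lower in Cre at an adjusted p under 0.05 (0.893% of all tested genes, 120 of 13431). This was Me1, with a log2 fold change of -1.14 (SE 0.14, edgeR quasi-likelihood test, adjusted p = 0.0196). At the study's threshold 5 were lower, against 8.82% of all tested genes. Thrsp differed by -1.12 (SE 0.33, adjusted p = 0.130), Acacb by -0.86 (SE 0.21, adjusted p = 0.0880), Mlxipl by -0.50 (SE 0.18, adjusted p = 0.193) and Acss2 by -0.36 (SE 0.11, adjusted p = 0.138). Acly (-0.25), Scd1 (-0.22), Srebf1 (-0.16), Fasn (-0.09) and Acaca (0.10) did not pass either threshold. The median of the 10 genes moved from -0.58 to -0.31. Without Cre replicate 1 the one adjusted call was Thrsp in place of Me1, and no gene of the 10 was called without GFP replicate 2 or without GFP replicate 3.

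**Figure D3:**
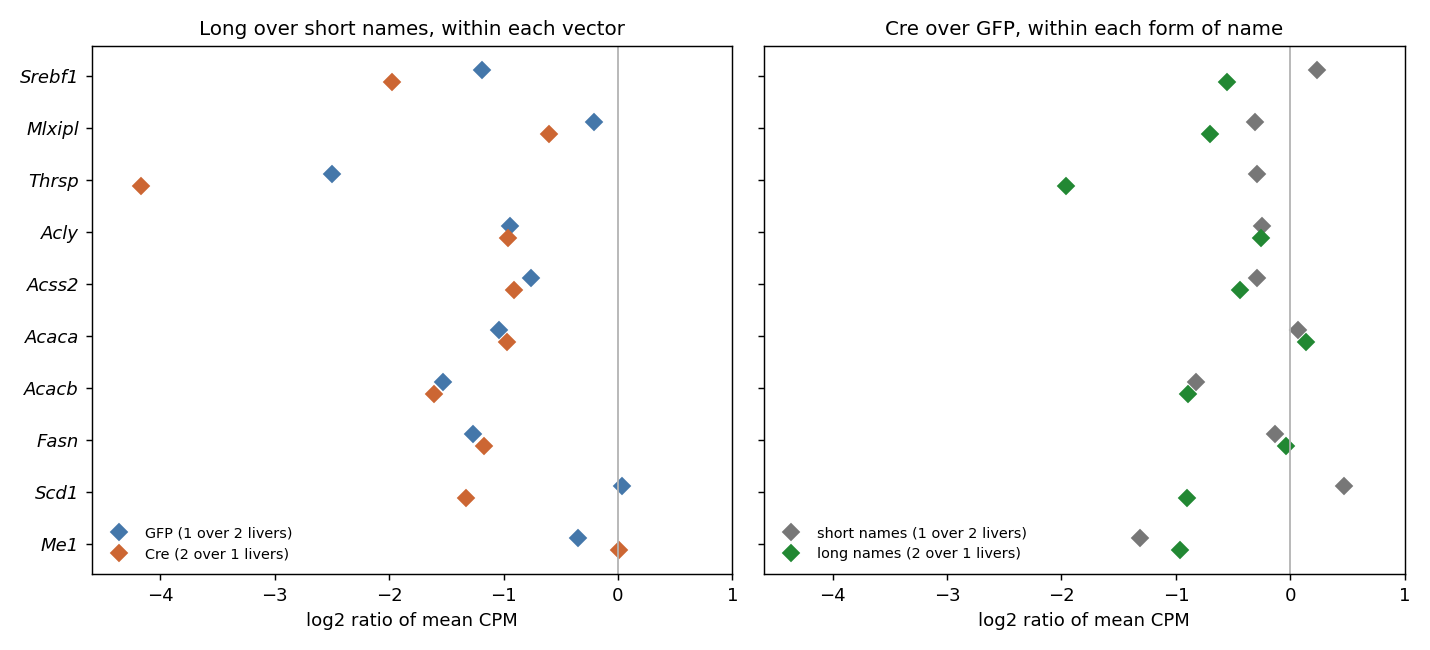
Log2 ratios of mean CPM of the 10 genes, long over short names within each vector (left) and Cre over GFP within each form of name (right); each diamond compares 1 liver with 2, without replicate error. On the left the 2 diamonds of Acly, Acaca, Acacb and Fasn nearly coincide (for Acly -0.95 in GFP and -0.96 in Cre), and Thrsp lies at -2.50 in GFP and -4.17 in Cre; on the right Me1 is at -1.32 and -0.96.

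The difference between the forms was present within each vector. Among GFP livers, 9 of the 10 genes were lower in the long-named one than in the mean of the short-named ones (median log2 ratio of CPM -0.99, 1 liver against 2). Among Cre livers it was again 9 of 10 (median -1.07, 2 livers against 1). The exceptions were Scd1 in GFP (0.04) and Me1 in Cre (0.01). Acaca showed -1.04 and -0.97, Acacb -1.53 and -1.60, and Fasn -1.27 and -1.17 in GFP and Cre. In contrast, Cre against GFP gave a median of -0.27 among short names, with 7 of 10 lower, and -0.63 among long names, with 9 of 10 lower. The share of all tested genes was not computed for these counts, which reuse the livers of the fits. The 10 genes also moved together, with r of each gene to the mean of the others from 0.53 to 0.998, so they are not separate observations.

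Thrsp, Srebf1 and Scd1 had vector differences of unlike size in the 2 forms. Cre against GFP was -0.29 among short and -1.96 among long names for Thrsp, 0.23 and -0.55 for Srebf1, and 0.47 and -0.90 for Scd1, on the log2 scale of mean CPM. In the test of the interaction, Thrsp had an unadjusted p of 0.000763 (edgeR quasi-likelihood test, adjusted p = 0.510), Srebf1 0.0242 (adjusted p = 0.830) and Scd1 0.193 (adjusted p = 0.904). None passed the adjusted threshold, 2 of the 10 genes were under an unadjusted p of 0.05, and 5.78% of all tested genes were (776 of 13431).

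Markers of other liver cells moved with both contrasts. The summed level of 9 endothelial markers was 206.7 to 275.4 CPM in short-named and 171.2 to 187.9 CPM in long-named libraries, without overlap, and 7 of the 9 were lower at the study's threshold, against 7.79% of all tested genes, and none at an adjusted p under 0.05. The other 7 marker lists overlapped between the forms, hepatocyte markers included (99640 to 104900 CPM in short-named and 84990 to 118600 CPM in long-named libraries). Beside the lower Me1 in Cre stood higher sums of markers of cholangiocytes (72.2 to 128.2 CPM in GFP, 305.8 to 573.7 CPM in Cre), macrophages and Kupffer cells (165.7 to 205.8, 269.8 to 449.0), stellate cells and fibroblasts (213.0 to 321.5, 445.5 to 966.3), T, NK and B cells (2.77 to 3.16, 3.56 to 7.18) and neutrophils (10.1 to 10.6, 14.0 to 16.8). At the study's threshold, 8 of 8 tested cholangiocyte markers were higher in Cre, against 12.0% of all tested genes. So were 6 of 9 macrophage markers, 5 of 9 stellate markers and 2 of 3 tested markers of T, NK and B cells. Of the macrophage markers 1, and of the stellate markers 2, had negative log2 fold changes. The lists of macrophages, of stellate cells and of T, NK and B cells held no adjusted call. Of the cholangiocyte markers, 3 were higher in Cre at an adjusted p under 0.05, against 0.484% of all tested genes. The neutrophil genes went both ways: of 4 tested, 3 were higher and 1 was lower in Cre at the study's threshold. At an adjusted p under 0.05, 1 of these 4 was higher. Genes of the adipocyte list summed to 3160 to 3865 CPM in GFP and 633 to 1688 CPM in Cre, again without overlap, with 3 of its 6 genes abundant enough to test. These 3 also went both ways. At the study's threshold 2 were lower in Cre, against 8.41% of all tested genes, while the highest log2 fold change was 0.76. At an adjusted p under 0.05, 1 of the 3 was lower, against 0.447% of all tested genes. A sum can be carried by few genes of a list, so this sum was not read as a level of adipocytes. Hepatocyte markers overlapped between the vectors (99640 to 118600 and 84990 to 106700 CPM). Among the markers of T, NK and B cells and of neutrophils, Ms4a1 and Retnlg were at 0 in at least 1 library. The part of these cell types in the results on the 10 genes was not tested.

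Around the 10 genes, 67 others of the pathway were followed in 8 groups, and all 67 were tested. Between the forms of name, 3 of the 67 were lower and 2 were higher at an adjusted p under 0.05, against 0.64% and 0.752% of all tested genes. At the study's threshold 20 were lower and 6 higher, against 7.79% and 8.11%. Their median log2 fold change was -0.06. Between the vectors, none of the 67 passed the adjusted threshold in edgeR, against 0.447% of all tested genes lower and 0.484% higher. At the study's threshold 10 were lower and 6 higher, against 8.41% and 12.0% of all tested genes, with a median of -0.17.

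**Figure D4:**
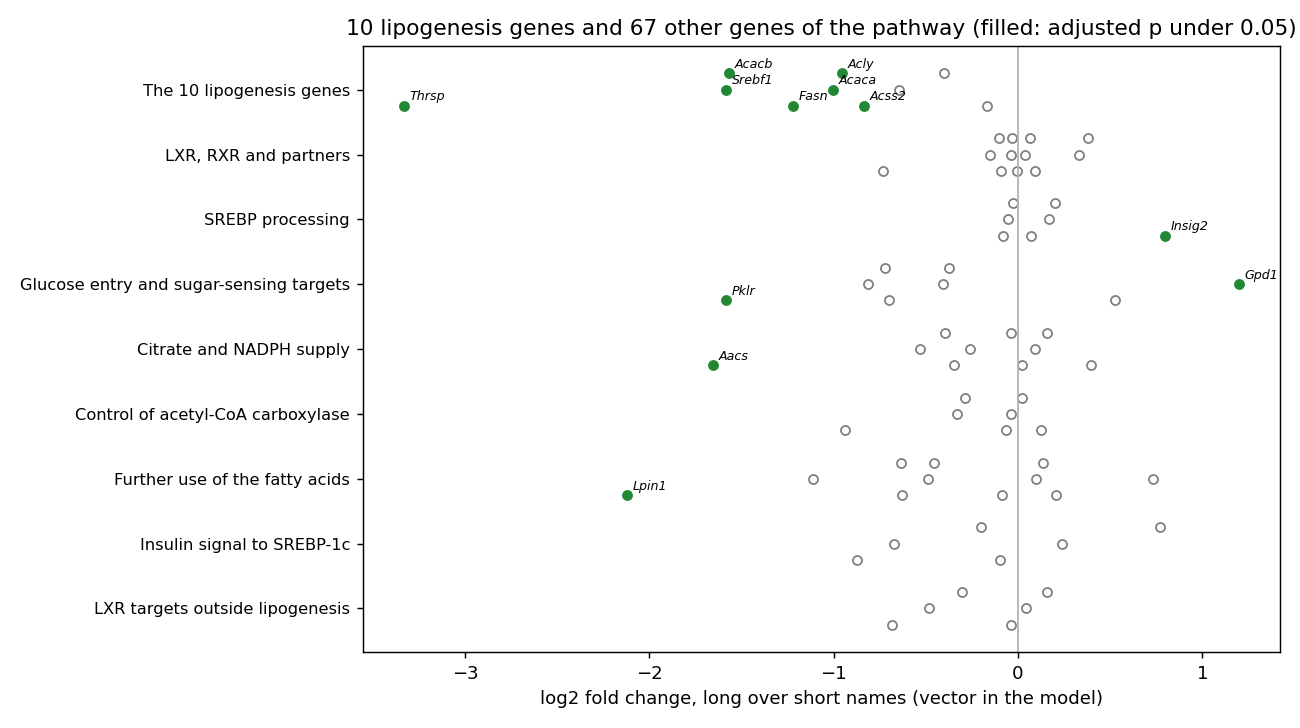
Log2 fold change of long over short names with the vector in the model (horizontal axis) for the 10 lipogenesis genes (top row) and 67 other genes of the pathway in 8 groups; filled points have an adjusted p under 0.05 and carry the gene symbol. Below the top row 5 points are filled: Lpin1 at -2.12, Aacs at -1.66 and Pklr at -1.58 to the left, Insig2 at 0.80 and Gpd1 at 1.198 to the right.

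Among upstream regulators, the 12 genes of LXR, RXR and partners held no adjusted call. The largest differences were those of Ppargc1b, a coactivator of SREBP-1, between the forms (-0.73, adjusted p = 0.243) and of Nfya, the subunit of NF-Y that contacts CCAAT, between the vectors (0.43, adjusted p = 0.218). In SREBP processing, 1 of 7 genes was higher in long-named livers: Insig2, which holds SREBP in the endoplasmic reticulum. Insig2 was at 46.4, 45.5 and 27.2 FPKM in GFP replicates 1 and 2 and Cre replicate 1 and at 67.7, 58.9 and 54.7 FPKM in GFP replicate 3 and Cre replicates 2 and 3, without overlap between the forms. Its log2 fold change was 0.80 (SE 0.12, edgeR quasi-likelihood test, adjusted p = 0.0353), opposite in sign to Srebf1. The 6 genes of the insulin signal held no adjusted call, and the largest differences were Irs2 between the forms (-0.87, adjusted p = 0.286) and Irs1 between the vectors (0.38, adjusted p = 0.527).

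In the group of glucose entry and sugar-sensing targets, 1 of 8 genes was lower and 1 higher in long-named livers. Pklr, which encodes liver pyruvate kinase and is a target of ChREBP, was at 135.2, 159.0 and 132.2 FPKM in GFP replicates 1 and 2 and Cre replicate 1 and at 51.4, 38.3 and 45.8 FPKM in GFP replicate 3 and Cre replicates 2 and 3 (log2 fold change -1.58, SE 0.18, adjusted p = 0.0184). Gpd1, which makes glycerol 3-phosphate in the cytosol, went the other way, at 177.9, 142.7 and 95.9 FPKM against 321.6, 251.4 and 253.0 FPKM in the same order (1.198, SE 0.17, adjusted p = 0.0293). Both genes separated the forms completely, in opposite directions. Between the vectors the largest difference of the group was that of Txnip, an inhibitor of glucose uptake (-0.91, adjusted p = 0.236).

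Of 10 genes of citrate and NADPH supply, Aacs was lower in long-named livers. Aacs encodes acetoacetyl-CoA synthetase, which feeds ketone carbon into cytosolic lipid synthesis, and was at 34.6, 35.4 and 28.1 FPKM in GFP replicates 1 and 2 and Cre replicate 1 and at 8.49, 12.2 and 11.2 FPKM in GFP replicate 3 and Cre replicates 2 and 3 (-1.66, SE 0.16, adjusted p = 0.0184). The largest vector difference there was that of Acss1, the mitochondrial acetyl-CoA synthetase (1.72, adjusted p = 0.145), at 0.05 to 0.51 FPKM in all livers. Among 11 genes for further use of the fatty acids, Lpin1, a phosphatidate phosphatase of triacylglycerol synthesis and a coregulator, was lower in long-named livers. Lpin1 was at 104.3, 73.1 and 111.1 FPKM in the short-named and 24.9, 22.4 and 19.9 FPKM in the long-named livers, in the same order (-2.12, SE 0.21, adjusted p = 0.0184). Scd2, a paralog of Scd1 whose fragments may be divided with it, had the largest vector difference of this group (1.13, adjusted p = 0.112). No gene passed the adjusted threshold among 7 controllers of acetyl-CoA carboxylase, where Mid1ip1, the partner of Spot 14, differed by -0.94 between the forms (adjusted p = 0.223) and Prkaa2 by -0.35 between the vectors (adjusted p = 0.208). The same held for 6 LXR targets outside lipogenesis, where Abcg8, a sterol exporter, showed the largest difference in both contrasts (-0.69 between the forms, adjusted p = 0.138, and -0.95 between the vectors, adjusted p = 0.146).

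Transcripts could be compared for 2 of the 10 genes, since the files hold 1 RefSeq transcript for each of the other 8. For Acly, NM_134037 took 60.6% to 80.8% of the expected counts of the gene and NM_001199296 the rest. For Srebf1, NM_011480 took 88.1%, 86.8% and 86.3% in GFP replicates 1 and 2 and Cre replicate 1 and 79.1%, 87.7% and 76.5% in GFP replicate 3 and Cre replicates 2 and 3, with NM_001313979 as the rest. The shares overlapped between the vectors (exact permutation test, p = 0.4 for Acly and 0.6 for Srebf1) and between the forms (p = 0.5 and 0.3). Fragments common to 2 transcripts were divided by an estimate, so that these shares carry its error.

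Other genes were ranked by how closely their log2 CPM followed the mean standardized log2 CPM of the 10 genes over the 6 libraries. Among 7874 genes with a mean of at least 10 CPM outside the 10, the closest were Slc25a1, Mplkip, Pstpip2, Tecr and Spag7, with r between 0.986 and 0.990. Slc25a1, the mitochondrial citrate carrier, was at 152.0, 133.2 and 145.6 FPKM in GFP replicates 1 and 2 and Cre replicate 1 and at 104.8, 97.99 and 92.7 FPKM in GFP replicate 3 and Cre replicates 2 and 3. Tecr encodes the last enzyme of very long chain fatty acid elongation. The 6 points share their libraries and fall into the 2 forms, so these values describe likeness only. None of the 5 was called between the forms (log2 fold changes of -0.58 to -0.19, adjusted p of at least 0.0695).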

How the data were processed

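Liver RNA of 6 mice was sequenced by BGI on the DNBseq platform after oligo-dT selection or rRNA depletion. For each liver and RefSeq transcript, the authors deposited FPKM beside an expected count, and a table gives FPKM per gene. An expected count is an estimate of fragments that need not be whole and is not normalized, and 45.4% were whole numbers. FPKM scales fragments by transcript length and by the fragments of the library. In 18440 of 18453 genes the deposited gene FPKM equalled the sum over transcripts within 0.02. The submitters' processing notes name HISAT2, Bowtie2, RSEM and mm10 without roles, whereas STAR, HTSeq and DESeq2 are the software listed by the authors in the methods, also without versions. Strandedness is not given in the sources used here.

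Expected counts were summed per NCBI gene ID and rounded. Differences were tested with the edgeR 4.0.16 quasi-likelihood test in R 4.3.3 (TMM, filterByExpr, all 6 libraries), by vector alone, by form of library name with the vector as covariate, by vector with the form as covariate, and for their interaction. Adjusted p-values are Benjamini-Hochberg values over 13431 genes. The standard error (SE) of an edgeR fit was derived as the absolute log2 fold change divided by the square root of the quasi-likelihood F statistic. The study's threshold was an unadjusted p under 0.05 and a fold of at least 1.2. Single values were compared with the exact two-sided permutation test. A marker level is the sum of its list in CPM. The steps were tested on simulated data. Precision is limited by 3 mice per group, and counting error adds most to the lowest counts. Libraries differed from their replicates by far more than sampling noise (chi-square per gene of at least 26.5).

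The 10 genes, the 67 other pathway genes, the markers and the tests were chosen with earlier results of these data known. Of the 67, those with an adjusted p under 0.05 or the largest difference of their group in either contrast are named, and the 5 genes most like the 10. The alternatives were RLE and upper quartile normalization, DESeq2 1.42.0, no filter, at least 10 counts in every library, limma 3.58.1 on log2(FPKM + 1) and log2(FPKM + 0.1) for genes with FPKM of at least 0.5 in 3 libraries and without that filter, leaving out each library, the replicate number as a block and the form as covariate or only factor. Promoter windows and coordinates are from RefSeq on GRCm38.p6, the assembly of mm10. No sample was left out. The value of 1 marker gene is not reported here.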

Additional observations from a re-analysis of the deposited data

Results flagged for a closer look

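For 3 of the 10 genes the observed difference between Cre and GFP was unlike in the 2 forms of library name. No interaction passed the adjusted threshold. For Thrsp the difference of the vector effects, long minus short names, was -1.67 on the log2 scale (SE 0.28, edgeR quasi-likelihood test, unadjusted p = 0.000763, adjusted p = 0.510). It came from a GFP level of 98.5 CPM against 22.5 and 28.1 CPM in Cre among long names, and of 519.9 and 594.2 CPM against 454.2 CPM among short names. For Srebf1 the difference was -0.79 (SE 0.27, unadjusted p = 0.0242, edgeR quasi-likelihood test, adjusted p = 0.830), and the libraries moved in opposite directions: 367.2 CPM in Cre against 348.2 and 277.0 CPM in GFP among short names, and 91.3 and 95.3 CPM in Cre against 137.0 CPM in GFP among long names. For Scd1 it was -1.37 (SE 0.94, edgeR quasi-likelihood test, unadjusted p = 0.193, adjusted p = 0.904), again with opposite directions. Its level was 6929 CPM in Cre against 6622 and 3417 CPM in GFP among short names. Among long names it was 4165 and 1339 CPM in Cre against 5147 CPM in GFP. Each form holds 1 liver of one vector and 2 of the other, and the interaction fit leaves 2 residual degrees of freedom.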

How the results depend on the processing

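Groups hold 3 livers, and the form of name is unequally crossed with the vector. Between the vectors, 125 genes were called at an adjusted p under 0.05: 66 with upper quartile normalization, 1156 with DESeq2, 372 without a filter, 76 with at least 10 counts in every library, 22, 27 and 9 with limma on log2(FPKM + 1), log2(FPKM + 0.1) and without a filter, 214 with the form as covariate, 2747 at the study's threshold, and 0 to 928 when each library was left out, the highest without Cre replicate 1. Of the 10 genes, 1 was called lower, 0 in the 3 limma fits, 2 at the study's threshold and 0 to 2 with a library left out. Between the forms, 187 genes were called: 689 with DESeq2, 292 without a filter, 99 with limma on log2(FPKM + 1) and 0 without its filter (where 8 of the 10 genes passed the study's threshold, beside 787 lower of all 18453 genes), 34 with the form as the only factor, 2135 at the study's threshold, and 4 to 70 with a library left out. Of the 10 genes 7 were called, 0 with limma without a filter, 2 with the form as the only factor and 0 to 4 with a library left out. Between the vectors with the form as covariate, 214 genes were called: 118 with upper quartile normalization, 939 with DESeq2, 447 without a filter, 48, 68 and 4 in the limma fits, 2606 at the study's threshold, and 13 to 199 with a library left out. Of the 10 genes 1 was called, 2 with DESeq2 (Acacb and Me1), 0 in the limma fits, 5 at the study's threshold and 0 to 1 with a library left out. In this fit upper quartile normalization gave 1687 higher and 803 lower genes at the study's threshold, beside 1421 and 1185. The cause of these moves was not tested, except that leaving out a library leaves fewer samples.

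Signs turned in these cases. Between the vectors, Acaca went to 0.10 with the form as covariate, and Scd1 ran from -0.88 to 0.13 with a library left out. Between the forms, Scd1 ran from -1.33 to 0.0232 and Me1 from -0.36 to 0.0128. With the form as covariate, Fasn went to 0.0899 in limma on log2(FPKM + 1) with and without the filter and 0.0942 on log2(FPKM + 0.1), and ran from -0.21 to 0.0725 with a library left out, Srebf1 went to 0.0139, 0.0139 and 0.0106 in these fits and ran from -0.55 to 0.22, and Scd1 ran from -0.89 to 0.45. The limma fits moved the median of all genes in the vector comparison to 0.11 and 0.14 with the filter and 0.07 without it, from -0.01, and their vector values are relative to that shift. Genes other than these kept their sign in every fit of these comparisons.

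Replicate numbers gave no clear pairing: the correlations of same-numbered deviations were 0.01, -0.26 and 0.21. GFP replicate 1 correlated best with Cre replicate 2 (0.15), GFP replicate 2 with Cre replicate 1 (0.31) and GFP replicate 3 with Cre replicate 3 (0.21). Deviations are taken from the mean of each group, so these values depend on each other and cannot show that no pairing existed. With the replicate block, 7 genes were called between the vectors and 0 of the 10 (Me1 -1.19, adjusted p = 0.0861). At the study's threshold 4 of the 10 were lower in that fit, beside 1093 lower of all 13431 tested genes.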
